A study of Mus musculus with 6 samples.

Results

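The 9 mucin genes described here were taken by symbol from a table of read counts for 21526 genes in mouse gastric corpus epithelium. They comprise 4 secreted mucins (Muc5ac, Muc6, Muc5b and Muc2) and 5 membrane-bound mucins (Muc1, Muc4, Muc20, Muc13 and Muc16). The Yap-activated group held 3 libraries from gastric cancer tissue of mice with genotype CluCreERT2;R26rtTA;HA-Yap+, that is with CreERT2, a tamoxifen-dependent Cre recombinase, at Clu, the doxycycline-dependent activator rtTA at Rosa26 and an HA-tagged Yap transgene. The Normal group held 3 libraries of normal stomach from wild-type (WT) mice. The labels give both groups the same treatment, 2 mg tamoxifen a day for 5 days and doxycycline in the food over the final 14 days. Since CreERT2 is driven from Clu, the model reaches the cells that express that gene. Normal mice had none of the 3 alleles, so what Yap does cannot be told apart from what the Cre and rtTA alleles do. The labels give no ages and do not tie each library to a mouse of its own. The p-values therefore describe the spread among these libraries, part of which may be technical.

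Mucins are long glycoproteins whose serine- and threonine-rich repeats carry dense O-linked sugars. Gel-forming mucins are secreted, link into polymers and make up the mucus layer, and in the gastric corpus the surface (pit) cells make MUC5AC while the mucous neck cells make MUC6. MUC2 is the main mucin of intestinal goblet cells and MUC5B is best known from airways and salivary glands. Membrane mucins such as MUC1, MUC4, MUC13, MUC16 and MUC20 stay on the apical cell surface, where their cytoplasmic tails or extracellular domains can meet receptor tyrosine kinases. YAP acts in the nucleus through TEAD proteins, which bind DNA at motifs such as GGAATG.

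The promoter windows of Muc4 and Muc1, membrane mucins with higher counts in Yap-activated libraries, are shown because each holds these letters, and that of Muc6, the most abundant secreted mucin left in Yap-activated libraries, is shown as a window without them. Each window runs from 250 bases before to 50 bases after the RefSeq start (GRCm38.p6), 5′ to 3′ on the gene's own strand. Capitals mark GGAATG or its reverse complement CATTCC. The windows lie at chr16:32735636-32735935 (plus strand), chr3:89228806-89229105 (plus strand) and chr7:141655344-141655643 (minus strand).
Muc4: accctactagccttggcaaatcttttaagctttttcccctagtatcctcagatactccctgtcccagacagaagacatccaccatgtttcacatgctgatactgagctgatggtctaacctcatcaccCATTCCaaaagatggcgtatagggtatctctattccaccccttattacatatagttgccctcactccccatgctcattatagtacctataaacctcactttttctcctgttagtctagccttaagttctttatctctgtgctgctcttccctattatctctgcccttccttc
Muc1: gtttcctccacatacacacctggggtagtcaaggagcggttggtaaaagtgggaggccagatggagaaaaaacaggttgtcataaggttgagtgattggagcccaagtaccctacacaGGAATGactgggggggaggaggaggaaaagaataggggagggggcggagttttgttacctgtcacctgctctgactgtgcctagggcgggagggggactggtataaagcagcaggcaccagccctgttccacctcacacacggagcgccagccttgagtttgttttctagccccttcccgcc
Muc6: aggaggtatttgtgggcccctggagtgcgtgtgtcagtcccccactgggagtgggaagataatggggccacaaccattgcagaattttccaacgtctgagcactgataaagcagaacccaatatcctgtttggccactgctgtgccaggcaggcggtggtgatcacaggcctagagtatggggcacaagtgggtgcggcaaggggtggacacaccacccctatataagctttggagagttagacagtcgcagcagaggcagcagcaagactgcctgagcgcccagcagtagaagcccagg

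RefSeq windows were found for 7 of the 9 mucin genes, in 8 windows since Muc13 has a pair. The TEAD letters GGAATG, searched on both strands, stood in 2 of the 8 windows, against 14.7% of all 32851 promoter windows. The match began 122 bases before the start in Muc4 and 132 bases before it in Muc1. The windows of Muc20, which also had higher counts in Yap-activated libraries, and of Muc13, Muc2, Muc6 and Muc16 held no such match. The AP-1 letters TGANTCA stood in 3 of the 8 windows, those of Muc2 and both of Muc13, against 7.81% of all windows. The FOXA letters TGTTTAC stood in 1 window, that of Muc20, against 3.65%. No 2 of these matches overlapped. A match describes the letters only.

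The libraries held 25580734 to 44295619 counts in the Yap-activated group and 36815754 to 48440033 in the Normal group. Levels are given as CPM, a gene's reads relative to the TMM-adjusted total of its library, and differences as log2 fold changes of Yap-activated over Normal with their SE. A gene was called at an adjusted p below 0.05 (edgeR quasi-likelihood test, Benjamini-Hochberg over 14600 genes). Of all genes tested 59.5% were called, 29.8% higher and 29.7% lower in Yap-activated libraries. The corpus label held for Normal libraries, where the 4 measured parietal markers summed to 21268 to 28949 CPM and the 4 chief cell markers to 90046 to 140545 CPM. In Yap-activated libraries these sums were 24.6 to 33.6 CPM and 159 to 194 CPM. Log2 fold changes were -9.65 for Atp4a, -9.86 for Atp4b and -9.28 for Kcne2 among the parietal markers, and -9.37 for Pgc, -9.22 for Pga5, -5.89 for Bhlha15 and -8.42 for Chia1 among the chief cell markers. Mitochondrial genes took 13.8%, 7.49% and 9.30% of counts in Yap-activated libraries 1, 2 and 3, against 27.6%, 16.1% and 15.1% in Normal ones. Normal library 1 thus stood apart from the rest, and all Normal libraries lay above all Yap-activated ones. The part of this share in the results below was not tested. In such bulk libraries, fewer cells of a type and less RNA per cell cannot be told apart.

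All 9 mucin genes passed the filter on low counts, Muc5b only through its Normal libraries. Of the 9, 3 rose (Muc1, Muc4 and Muc20), 4 fell (Muc5ac, Muc5b, Muc6 and Muc16) and 2 did not pass the threshold (Muc2 and Muc13). Their median log2 fold change was -0.49, against 0.01 over all genes tested, of which 29.8% rose and 29.7% fell. The groups did not overlap at the 7 genes that were called, against 67.6% of all genes tested. Among secreted mucins 0 rose, 3 fell and 1 was not called, with a median log2 fold change of -3.33. Among membrane mucins 3 rose, 1 fell and 1 was not called, with a median of 1.35. The members were chosen with results of these data known, so the 2 classes were not set against each other by a test.

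**Figure D1:**
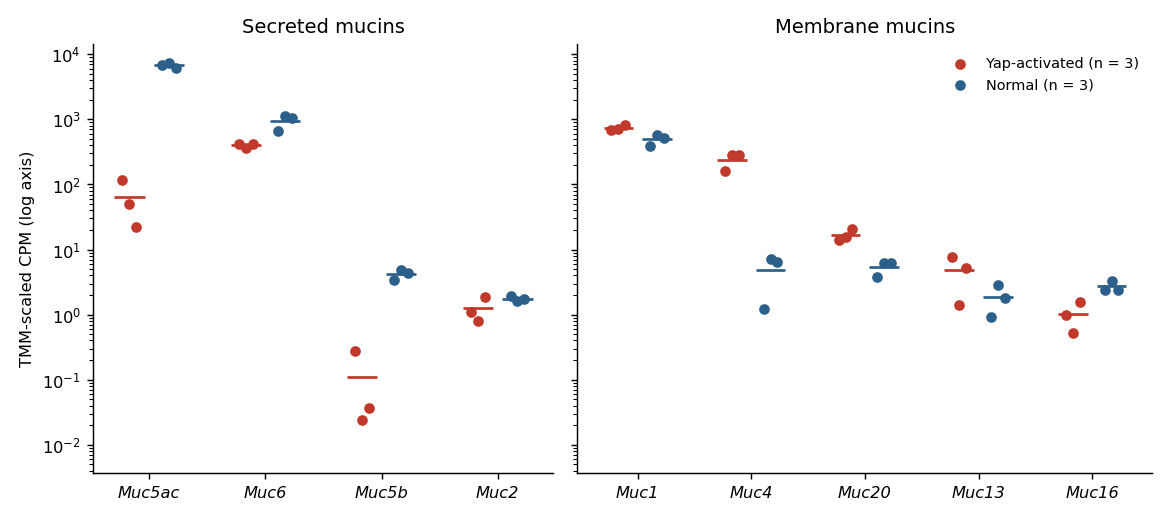
Level of each mucin gene in TMM-scaled CPM on a log axis, one point per library, with Yap-activated libraries (red) left of Normal libraries (blue) and horizontal bars at the group means (n = 3 each). Muc5ac lay between 22.1 and 119 CPM in Yap-activated libraries and at 6262 CPM or above in Normal ones, while Muc4 lay between 159 and 282 CPM in Yap-activated libraries and at most at 7.06 CPM in Normal ones.

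Muc5ac, the pit cell mucin, was the most abundant mucin of the Normal libraries and the one that fell most. It had 119, 50.1 and 22.1 CPM in Yap-activated libraries 1, 2 and 3, against 6758, 7234 and 6262 CPM in Normal libraries 1, 2 and 3. Yap-activated library 1 stood highest within its group, and every Yap-activated library lay far below every Normal one. The group means were 63.6 ± 49.7 CPM in Yap-activated and 6751 ± 486 CPM in Normal libraries (SD, n = 3 each), a log2 fold change of -6.73 (SE 0.69, adjusted p = 1.78e-04). Without Yap-activated library 1 it was -7.53. Of 8 markers of surface mucous cells, 7 also fell, against 29.7% of all genes tested. The summed level of the 8 ran from 2814 to 3626 CPM in Yap-activated and from 46361 to 53495 CPM in Normal libraries. Psca, a surface protein of these cells, had 184, 199 and 142 CPM in Yap-activated libraries, against 4440, 4536 and 4763 CPM in Normal ones. Foxq1, a transcription factor of pit cells, had a log2 fold change of 0.23 that did not pass. The part of a change in surface cells in the fall of Muc5ac was not tested.

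Muc5b, a neighbour of Muc5ac on chromosome 7, had few reads in either group. It had 8, 1 and 2 reads in the Yap-activated libraries, against 118, 201 and 138 reads in the Normal ones, or 0.271, 0.0239 and 0.0372 CPM against 3.44, 4.78 and 4.36 CPM. Summed over the libraries, 11 reads stood against 457, a ratio of 0.0208 with an exact 95% binomial interval of 0.0103 to 0.0375 that covers counting error only. The fitted log2 fold change was -5.42 (SE 0.69, adjusted p = 3.53e-04). Without Yap-activated library 1, which held 8 of the 11 reads, it was -6.92.

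Muc6, the neck cell mucin, fell far less than Muc5ac. It had 422, 359 and 422 CPM in the Yap-activated libraries, against 673, 1131 and 1058 CPM in the Normal ones. Normal library 1 was the lowest of its group, yet still above all 3 Yap-activated libraries. It was also the library with the highest mitochondrial share, and without it the log2 fold change was -1.46. The means were 401 ± 36.4 CPM in Yap-activated and 954 ± 246 CPM in Normal libraries (SD, n = 3 each), a log2 fold change of -1.25 (SE 0.21, adjusted p = 0.00141). With library totals in place of TMM it was -0.77 (adjusted p = 0.0173 in edgeR's test). Of 6 genes listed as neck cell markers, 4 rose, 1 fell and 1 did not pass, against 29.8% higher and 29.7% lower over all genes. The summed level of these 6 markers ran from 1735 to 2760 CPM in Yap-activated and from 1232 to 2372 CPM in Normal libraries. Aqp5, a water channel, Cftr, a chloride channel, and Cd44, a hyaluronan receptor, rose, with log2 fold changes of 3.05, 6.36 and 4.92. In Normal libraries Aqp5, Cftr and Cd44 had at most 19.3, 3.40 and 22.2 CPM. Gkn3, picked after its values were seen, rose too, with a log2 fold change of 1.73 (adjusted p = 0.0249 in edgeR's test). It had 532, 240 and 336 CPM in Yap-activated libraries, against 43.5, 173 and 117 CPM in Normal ones. The part of neck cells in these rises was not tested. The trefoil factor gene Tff2 was at -0.58 (adjusted p = 0.119). A4gnt, picked after its values were seen, encodes the enzyme that adds terminal α1,4-linked N-acetylglucosamine to gland mucin sugars, and it fell by 2.80 (SE 0.30). It had 30.9, 17.5 and 24.8 CPM in Yap-activated libraries, against 119, 228 and 164 CPM in Normal ones, where library 1 was again the lowest.

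Muc2, the goblet cell mucin, was low in both groups. It had 1.08, 0.811 and 1.84 CPM in Yap-activated libraries, against 1.92, 1.64 and 1.74 CPM in Normal ones, and the groups overlapped. Its log2 fold change of -0.49 (SE 0.36, adjusted p = 0.267) did not pass, though it passed without Yap-activated library 3 (-0.90, adjusted p = 0.048) and was 0.01 with library totals in place of TMM. Among 7 intestinal goblet cell markers, 5 could be tested, of which 2 rose, 1 fell and 2 did not pass. Over all genes tested 29.8% rose and 29.7% fell. Clca1, a secreted goblet cell protein, had 251, 286 and 274 CPM in Yap-activated libraries, against 4.22, 48.4 and 26.6 CPM in Normal ones. Tff3, a goblet cell trefoil factor, rose by 2.36 on the log2 scale. It had 61, 97 and 43 reads in Yap-activated libraries, against 12, 21 and 4 in Normal ones. Its Normal libraries alone would not have carried it past the filter on low counts. Spink4, a protease inhibitor gene of goblet cells, went the other way, with 3.49, 1.86 and 3.05 CPM in Yap-activated libraries, against 25.3, 24.8 and 17.2 CPM in Normal ones, a log2 fold change of -3.01 (adjusted p = 6.08e-05). Atoh1, the transcription factor that defines intestinal secretory cells, and Retnlb had 0 reads in all 6 libraries, which allows at most 0.102 CPM in the smallest of them.

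Muc4 was the mucin that rose most. It encodes a very large membrane mucin whose EGF-like domains can bind the receptor ERBB2. It had 159, 279 and 282 CPM in Yap-activated libraries, against 1.22, 7.06 and 6.35 CPM in Normal ones. Yap-activated library 1 and Normal library 1 were the lowest of their groups, and the groups stood far apart. The means were 240 ± 70.2 CPM in Yap-activated and 4.88 ± 3.18 CPM in Normal libraries (SD, n = 3 each), a log2 fold change of 5.62 (SE 0.65, adjusted p = 3.93e-04). The call held in all 14 alternatives, at 5.15 to 6.09 on the log2 scale. MUC4 is also found in intestinal and squamous epithelia. Of 4 tested markers of intestinal identity 3 rose and 1, Fabp2, did not pass, at -0.87 on the log2 scale. Among all genes tested 29.8% rose and 29.7% fell. The summed level over the list was 1081 to 1895 CPM in Yap-activated and 262 to 331 CPM in Normal libraries. Cdh17, an intestinal cadherin, Vil1, the villin gene of microvilli, and Lgals4, a galectin gene, rose, with log2 fold changes of 5.63, 2.02 and 2.32. Lgals4 alone made up most of the sum, with 992, 1739 and 1200 CPM in Yap-activated and 283, 276 and 231 CPM in Normal libraries. Cdh17 had 54, 77 and 46 reads in Yap-activated libraries, against 0, 3 and 0 in Normal ones. It passed the filter on low counts only through its Yap-activated libraries. Of the defining transcription factors, Cdx2 had 30, 4 and 19 reads in Yap-activated libraries, against 0 reads in each Normal one, and Cdx1 had 0 reads in all 6. Both were too low to be tested. Of 7 tested squamous markers 1 rose and 6 did not pass, with sums of 50.7 to 77.0 CPM in Yap-activated and 0.221 to 37.8 CPM in Normal libraries. Ivl, the involucrin gene, rose by 7.35 on the log2 scale, while the keratin genes Krt4, Krt14 and Krt13 were at 3.09, 3.13 and 2.17 without passing. Ivl had 319, 566 and 493 reads in Yap-activated libraries, against 5, 1 and 1 in Normal ones. It too passed the filter on low counts only through its Yap-activated libraries. Normal library 2 stood apart, with 703 reads of Krt13 against 20 and 1 reads in Normal libraries 1 and 3. Muc4 was at 5.99 on the log2 scale without that library and at 5.15 without Normal library 1. The part of the intestinal and squamous markers in the level of Muc4 was not tested.

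Muc1, the most abundant membrane mucin, changed little in size with TMM scaling. It had 689, 713 and 820 CPM in Yap-activated libraries, against 393, 579 and 521 CPM in Normal ones. The groups did not overlap, but the highest Normal library lay close below the lowest Yap-activated one. The means were 740 ± 69.9 CPM in Yap-activated and 498 ± 94.9 CPM in Normal libraries (SD, n = 3 each), a log2 fold change of 0.57 (SE 0.17, adjusted p = 0.021). With library totals in place of TMM the log2 fold change was 1.06 (adjusted p = 0.00187 in edgeR's test). The call was lost without Yap-activated library 3 (adjusted p = 0.0594), Normal library 1 (0.0576) or Normal library 3 (0.0518), all in edgeR's test.

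Muc20 had 14.1, 15.7 and 20.4 CPM in Yap-activated libraries, against 3.79, 6.30 and 6.23 CPM in Normal ones, with no overlap. This gave a log2 fold change of 1.62 (SE 0.24, adjusted p = 7.67e-04). MUC20 is known to bind the receptor MET in human cells, and Met, picked after its values were seen, rose by 1.53 on the log2 scale. Muc20 and Muc4 lie tail to tail on opposite strands of chromosome 16 and overlap by 4973 bases, of which 627 are exonic in both, 15.6% of the exon bases of Muc20. The libraries were made with a stranded kit, but no source used here gives the strand setting of the counting. Even coverage of the exons of Muc4 would place 8.47, 14.9 and 15.1 CPM on the shared bases in the Yap-activated libraries, against 0.0583, 0.380 and 0.348 CPM in the Normal ones. With those reads taken off, Muc20 had 3.93 ± 2.71 CPM in Yap-activated and 5.17 ± 1.25 CPM in Normal libraries (SD, n = 3 each), a log2 fold change of -0.40 (SE 0.63, adjusted p = 0.61). Whether any Muc4 reads were counted as Muc20 was not tested, so the rise of Muc20 cannot be told apart from that of Muc4 in this table.

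**Figure D2:**
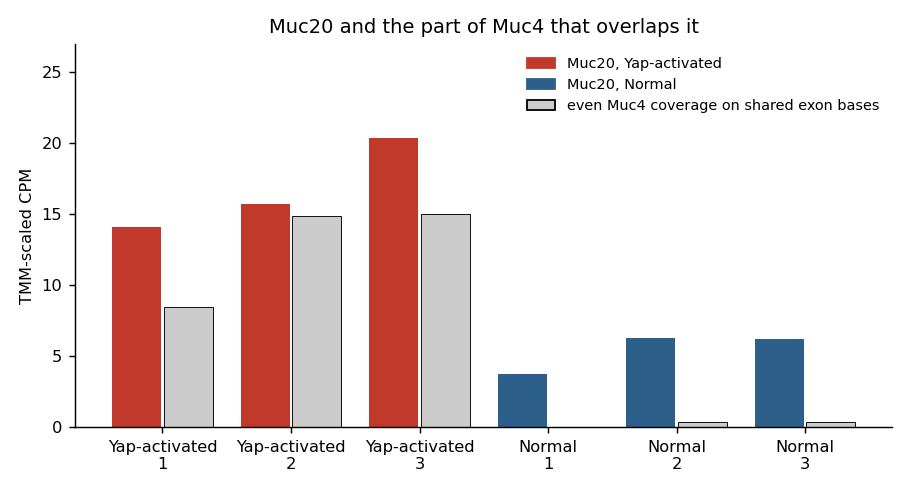
Level of Muc20 as counted (coloured bars, red for Yap-activated and blue for Normal libraries) and the level that even coverage of Muc4 would place on the 627 shared exon bases (grey bars), in TMM-scaled CPM per library. In Yap-activated library 2 the grey bar reaches 14.9 CPM beside 15.7 CPM for Muc20, while no Normal library has a grey bar above 0.380 CPM.

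Muc13, which encodes a small membrane mucin of gastrointestinal epithelium, varied between Yap-activated libraries. It had 7.73, 1.41 and 5.19 CPM in Yap-activated libraries, against 0.932, 2.85 and 1.77 CPM in Normal ones. Libraries 1 and 3 of the Yap-activated group lay above all Normal libraries and library 2 within their range. The log2 fold change of 1.35 (SE 0.65, adjusted p = 0.109) did not pass in edgeR's test, but passed without Yap-activated library 2 (1.78, adjusted p = 0.0111), with library totals alone (1.82, adjusted p = 0.042) and in DESeq2 (1.37, adjusted p = 0.041). Within the Yap-activated group, the summed level of immune cell markers was also lowest in library 2. Ptprc, the pan-leukocyte gene, had 33.3, 14.3 and 60.1 CPM in Yap-activated libraries, against 10.3, 9.46 and 10.2 CPM in Normal ones. Of 5 tested immune markers 3 rose, against 29.8% of all genes tested. These were Ptprc, Csf1r and Cd68, with log2 fold changes of 1.85, 1.57 and 1.45. The summed level over the list was 52.3 to 182 CPM in Yap-activated and 35.8 to 40.2 CPM in Normal libraries, and its part in the level of Muc13 was not tested.

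Muc16, which encodes the CA125 antigen, was the membrane mucin that fell. It had 29, 22 and 83 reads in Yap-activated libraries, or 0.983, 0.525 and 1.54 CPM, against 83, 139 and 76 reads, or 2.42, 3.30 and 2.40 CPM, in Normal ones. The log2 fold change was -1.40 (SE 0.41, adjusted p = 0.0195). The call was lost without Normal library 2 (-1.24, adjusted p = 0.0726) and with library totals alone (-0.91, adjusted p = 0.0863), a scaling under which the median log2 fold change of all genes was 0.50, against 0.01 with TMM. Msln, whose product mesothelin binds MUC16, moved the other way, with 3354, 1870 and 2392 CPM in Yap-activated libraries, against 15.2, 13.9 and 13.2 CPM in Normal ones. Both genes are expressed by mesothelium, and the other 5 mesothelial markers did not pass the threshold, among them Lrrn4 at -0.70 and Bnc1 at -0.45. Wt1, one of them, had 0.949, 0.859 and 1.25 CPM in Yap-activated libraries, against 1.51, 1.14 and 1.23 CPM in Normal ones.

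**Figure D3:**
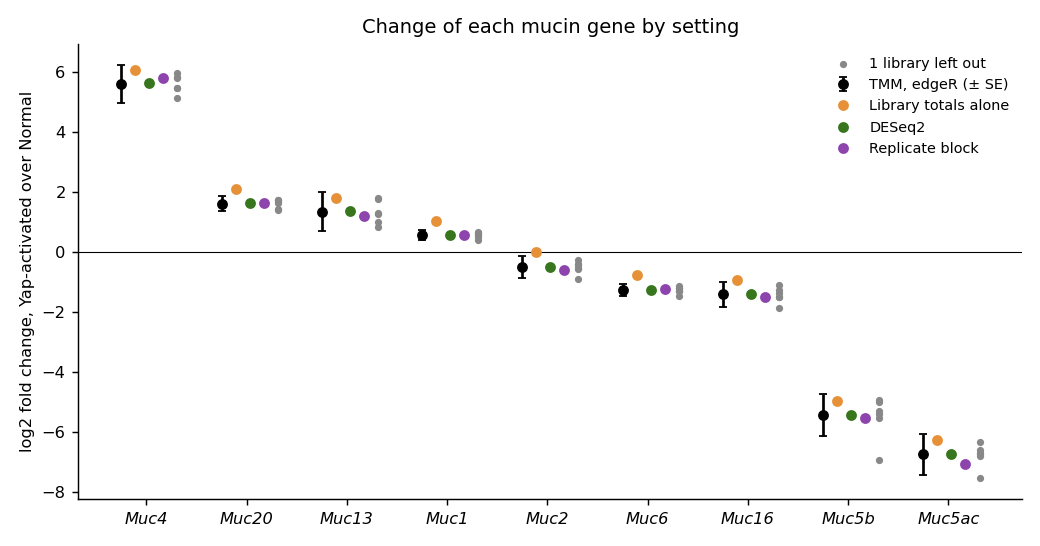
Log2 fold change of each mucin gene, Yap-activated over Normal, under the edgeR test with TMM (black, bars are SE), library totals alone, DESeq2, a replicate block, and with each library left out in turn (small grey points). Muc4 stays above 5 and Muc5ac below -6 throughout, while Muc2 reaches 0.01 with library totals alone.

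Summed over each class, secreted mucins had 542, 410 and 446 CPM in Yap-activated libraries, against 7436, 8371 and 7326 CPM in Normal ones. Membrane mucins had 870, 1009 and 1129 CPM in Yap-activated libraries, against 402, 598 and 538 CPM in Normal ones. Secreted mucins thus held 38.4%, 28.9% and 28.3% of the mucin counts in Yap-activated libraries, against 94.9%, 93.3% and 93.2% in Normal ones. This share, 31.9 ± 5.66% in Yap-activated and 93.8 ± 0.944% in Normal libraries (SD, n = 3 each), does not depend on how libraries are scaled. Per kilobase of exon it was 12.6 ± 2.29% in Yap-activated and 77.4 ± 2.75% in Normal libraries (SD, n = 3 each).

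Levels of different mucins can be compared only per length, here as CPM per kilobase of annotated exon. In Yap-activated libraries the order was Muc1 at 316, Muc6 at 42.8, Muc4 at 20.4, Muc5ac at 5.91 and Muc20 at 4.15 CPM per kilobase, followed by Muc13, Muc2, Muc16 and Muc5b. In that group only Muc5ac and Muc20 had overlapping ranges as neighbours in the order. In Normal libraries it was Muc5ac at 628, Muc1 at 212, Muc6 at 102 and Muc20 at 1.35 CPM per kilobase, followed by Muc13, Muc4, Muc5b, Muc2 and Muc16. There the ranges of Muc13 and Muc4, of Muc4 and Muc5b, and of Muc5b and Muc2 overlapped. Among 14599 genes with a length, Muc5ac ranked 6159 in Yap-activated and 38 in Normal libraries, Muc4 2088 and 12261, Muc1 68 and 117, and Muc6 873 and 294. As a share of the mucin reads per kilobase, Muc6 took 12.2%, 10.2% and 10.5% in Yap-activated libraries, against 8.26%, 11.6% and 12.3% in Normal ones, so that its share overlapped between the groups. Muc1 took 79.4% to 81.7% in Yap-activated libraries, against 19.3% to 24.1% in Normal ones.

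**Figure D4:**
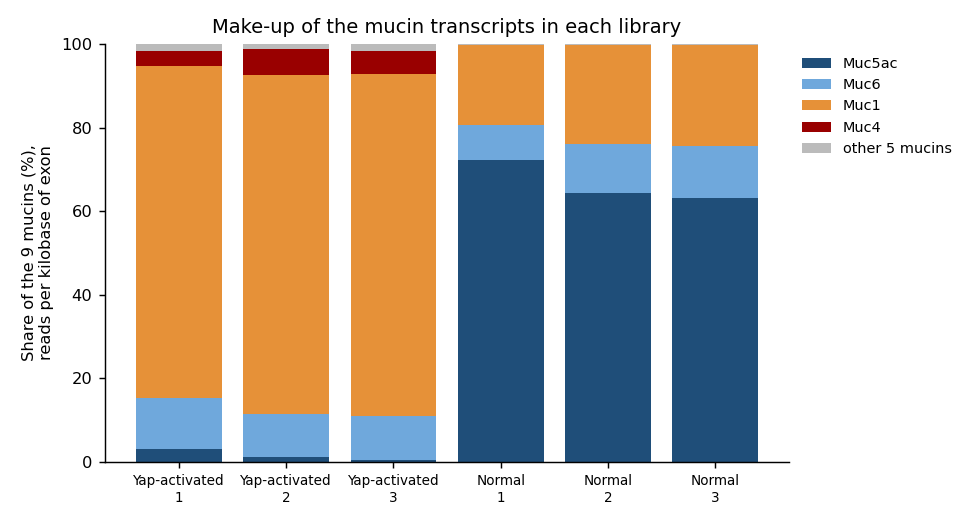
Share of each mucin in the reads per kilobase of exon over the 9 mucin genes, in percent, one bar per library with Yap-activated libraries on the left. Muc1 fills 79.4% to 81.7% of the Yap-activated bars and Muc5ac 63.2% to 72.2% of the Normal bars, while Muc6 takes 10.2% to 12.2% of the Yap-activated and 8.26% to 12.3% of the Normal bars.

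The genes lie in 2 groups and as 2 single genes on the genome (GENCODE M21, GRCm38). On chromosome 7, Muc6 (minus strand, 141633456 to 141655319), Muc2 (141690340 to 141754693), Muc5ac (141788972 to 141819231) and Muc5b (141839070 to 141873084, these 3 on the plus strand) follow each other with no other protein-coding gene between them. Along this row the log2 fold changes were -1.25, -0.49, -6.73 and -5.42, so the neighbours Muc5ac and Muc5b, 19838 bases apart, had the lowest values. On chromosome 16, Muc4 (plus strand, 32735886 to 32782391) and Muc20 (minus strand, 32777419 to 32797435) overlap, and Muc13 (plus strand, 33794037 to 33819934) lies 996601 bases beyond with 12 protein-coding genes between. Muc1 lies on chromosome 3 (plus strand, 89229057 to 89233381) and Muc16 on chromosome 9 (minus strand, 18495455 to 18674530).

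The repeats that carry the sugars also bear on counting. Of the windows of 50 bases, the read length, 23.2% occurred more than once within the longest coding transcript of Muc5ac, 21.9% in Muc5b, 14.2% in Muc13, 12.7% in Muc6 and 10.1% in Muc4. The shares were 2.06% in Muc16, 1.28% in Muc1 and 0 in Muc2 and Muc20. In all 9 genes 0 windows occurred in transcripts of another gene read in the same direction. Matches on the opposite strand were not searched, so this leaves out the exon bases that Muc4 and Muc20 share. No source used here says how reads from repeats were counted, and this bears on levels between genes more than on one gene between libraries. The longest coding transcript of Muc2 has 2926 bases where its merged exons span 7127, so its level per kilobase is uncertain.

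Most genes of a list for mucous secretion fell. Of 20 tested genes of mucous secretion 2 rose, 13 fell and 5 did not pass, against 29.8% higher and 29.7% lower over all genes. The median log2 fold change was -1.27, against 0.01 over all genes tested. The list shares Gkn1, Gkn2, Tff1 and Capn8 with the surface cell markers and Tff2 with the neck cell markers. It also shares Clca1, Fcgbp, Zg16, Tff3 and Atoh1 with the goblet cell markers. The 2 genes that rose were Clca1 and Tff3. Capn9, a calpain of gastric surface cells, had 0.407, 0.406 and 0.260 CPM in Yap-activated libraries, against 122, 136 and 120 CPM in Normal ones. The gastrokine genes Gkn1 and Gkn2 fell, with log2 fold changes of -5.11 and -4.96. Among examples picked after their values were seen, Spdef and Creb3l1, transcription factors of mucous and secretory cells, fell, with log2 fold changes of -1.18 and -1.79, and Agr2, a disulfide isomerase needed for mucin folding, was at -0.34 (adjusted p = 0.209).

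Of 15 tested GALNT genes, which encode the enzymes that start O-linked sugars, 3 rose, 5 fell and 7 did not pass (median -0.50). Galnt3 rose, with 236, 225 and 217 CPM in Yap-activated libraries, against 75.5, 96.1 and 85.3 CPM in Normal ones. Galnt4, the one with the highest mean CPM, fell by 1.01 on the log2 scale, and Galnt5 and Galnt15 fell too, with log2 fold changes of -1.64 and -2.70. Of 22 tested genes that extend or cap these sugars, 4 rose, 9 fell and 9 did not pass (median -0.29). Over all genes tested 59.5% were called, 29.8% higher and 29.7% lower. The share of genes called in neither of these lists exceeded that. St3gal4, a sialyltransferase, had 125, 206 and 195 CPM in Yap-activated libraries, against 9.17, 10.4 and 7.46 CPM in Normal ones. Gcnt1, which makes core 2 branches, rose by 3.47 on the log2 scale, while its relative Gcnt3, with the highest mean CPM of the list, was at -0.28 (adjusted p = 0.177). B4galnt3, an N-acetylgalactosaminyltransferase, fell by 3.86. The fucosyltransferase gene Fut2, picked after its values were seen, fell by 1.70. Among the genes that rose, Galnt14 and B3gnt5, also picked afterwards, passed the filter on low counts only through their Yap-activated libraries. Galnt14 had 12, 22 and 13 reads in these, against 0, 2 and 0 in Normal libraries. B3gnt5 had 46, 14 and 45 reads, against 10, 3 and 6.

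Of 15 tested genes whose products bind or cleave membrane mucins, 10 rose, 2 fell and 3 did not pass, with a median of 0.67. Over all genes tested 29.8% rose and 29.7% fell, with a median of 0.01. Besides Msln these partner genes include Egfr, the EGF receptor, which rose by 2.23 on the log2 scale (SE 0.14). They also include Mmp14, a membrane protease that can shed MUC1, which rose by 2.74 (SE 0.21). Erbb2, the receptor gene named above with Muc4 and also picked afterwards, was at 0.07 (adjusted p = 0.766). Lgals3, picked after its values were seen, encodes a galectin that binds mucin sugars, and had 1377, 722 and 556 CPM in Yap-activated libraries, against 24.6, 35.1 and 29.1 CPM in Normal ones.

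**Figure D5:**
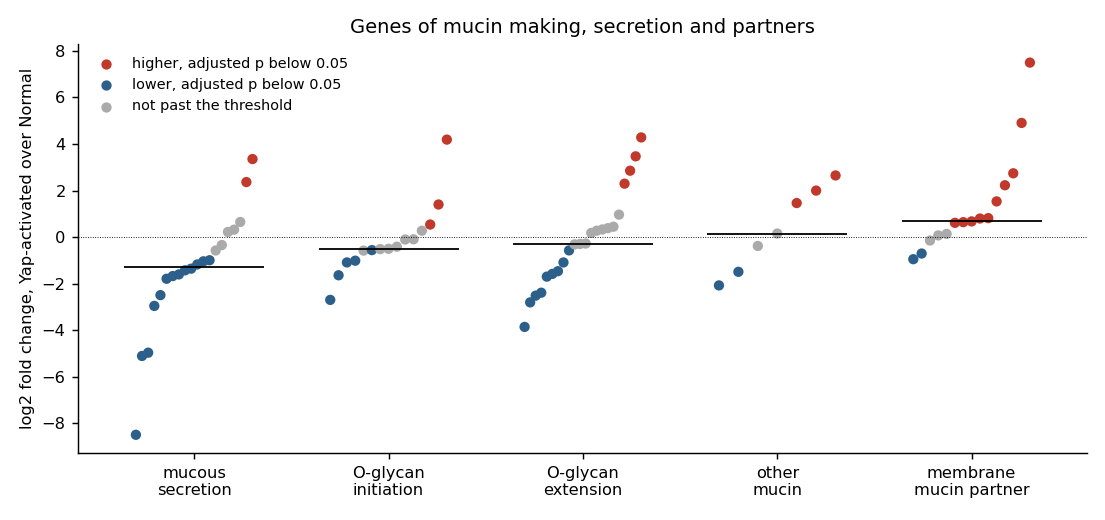
Log2 fold change, Yap-activated over Normal, of the tested genes in 5 lists around the mucins, one point per gene, ordered by value within a list. Red points rose and blue points fell at an adjusted p below 0.05, grey points did not pass, and black lines are medians, from -1.27 for mucous secretion to 0.67 for the partners of membrane mucins.

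Among 14 further mucin and mucin-like genes, 11 were in the table. Of the 7 that could be tested 3 rose, 2 fell and 2 did not pass, against 29.8% higher and 29.7% lower over all genes. Mucl3, a mucin-like gene of gastric surface cells, had the highest mean CPM, with 1340, 702 and 791 CPM in Yap-activated libraries, against 2812, 5066 and 4057 CPM in Normal ones, a log2 fold change of -2.08 (SE 0.32). Mcam, a cell adhesion molecule also named MUC18, rose by 2.00, and Emcn, the endothelial sialomucin, fell by 1.49 on the log2 scale. The other 3 endothelial markers fell too, among them Kdr at -2.45 and Cdh5 at -1.60. The intestinal membrane mucin Muc3, picked after its values were seen, was too low to be tested, with 124, 65 and 1 reads in Yap-activated libraries, against 0, 6 and 0 in Normal ones. It was high in Yap-activated libraries 1 and 2, whereas Muc13 was high in libraries 1 and 3. Muc3a, also picked afterwards, was tested and rose by 2.65 on the log2 scale (SE 0.82, adjusted p = 0.025 in edgeR's test). It had 91, 36 and 19 reads in Yap-activated libraries, against 5, 11 and 8 in Normal ones. Only its Yap-activated libraries carried it past the filter on low counts.

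The genes with the profile nearest to each mucin over the 6 libraries were found by the Euclidean distance between log2 CPM values centred on each gene's mean. For Muc4 they were Gpa33, Cldn23 and Cldn6, at distances of 1.13, 1.22 and 1.38. For Muc5ac they were Apoa1, Slc5a5 and Chst3 (1.33, 1.34 and 1.46), and for Muc5b Slc38a5, Tnfrsf19 and Wipf3 (0.58, 0.90 and 1.02). Muc6 lay nearest to Chad, Smpd1 and Nxph3, all within 0.26, and Muc1 to Irgm1, Tnfrsf11a and Zfp334, all within 0.21. The nearest gene was Mcoln2 for Muc20 (0.37), Tlr2 for Muc13 (0.88), Daw1 for Muc16 (0.35) and Zdhhc14 for Muc2 (0.15). The nearest genes of Muc4 and Muc5ac lay farther off than those of the other mucins. None of the 9 had another of the 9 among its 3 nearest genes.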

How the data were processed

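RNA from EDTA-released corpus epithelial cells was made into TruSeq Stranded mRNA libraries and read as 50 bp pairs, per the labels' protocols. The authors deposited 1 table of raw read counts per gene symbol. STAR 2.4.2a, DESeq2, GRCm38 and mm10 are named in the submitters' processing notes. No source used here gives the counting program, its strand setting or the annotation.

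Groups were taken from the sample titles. The analysis used edgeR 4.0.16 in R 4.3.3. Genes past filterByExpr (minimum count 10) were scaled by TMM and tested by the robust quasi-likelihood F-test over all 6 libraries, with Benjamini-Hochberg adjustment over 14600 genes. Each SE was obtained as the log2 fold change over the root of its F statistic. Alternatives were other scalings and filters, DESeq2 1.42.0, voom in limma 3.58.1, a replicate block and leaving out each library. Lengths and positions came from GENCODE M21, which held 21523 of the 21526 symbols, and promoters from RefSeq GRCm38.p6.

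The members and lists were chosen with earlier results of these data known. The text names all 9 mucins and, in each list, the 3 genes with the smallest p and the gene with the highest mean CPM, and in marker lists some other defining markers. For each mucin, the 3 genes nearest in profile were found among those without a provisional symbol. Other genes are said to be picked after their values were seen.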

Additional observations from a re-analysis of the deposited data

How the results depend on the processing

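Under 14 alternatives the calls of Muc4, Muc5ac, Muc5b, Muc6 and Muc20 held in direction and threshold. The counts of 7 mucin genes called and of 3 secreted and 4 membrane genes called stayed within 1.5 times, at 6 to 8, 3 to 4 and 3 to 5. With library totals alone 7522 genes were higher and 2299 lower, or 76.6% higher, against 50.1% with TMM, and of the mucins 4 rose and 3 fell. Muc2 was at 0.0081 on the log2 scale with that scaling, which turned its direction, and with the reads of Muc4 on shared exon bases taken off, an alternative chosen after seeing the data, Muc20 was at -0.40. The first follows from the scaling, under which the median log2 fold change of all genes was 0.50, against 0.01 with TMM. The second follows from its construction. Per kilobase, the secreted share was 12.6% in Yap-activated and 77.4% in Normal libraries, which follows from dividing each count by exon length. Leaving out 1 library at a time gave shares of 28.6% to 33.6% in Yap-activated and 93.2% to 94.1% in Normal libraries, and 7213 to 8577 genes called. With the replicate number as a block, 8561 genes and 7 mucins were called. Deviations from the group means correlated at 0.04, 0.0027 and 0.069 between libraries of the same number, across genes, and not every library correlated best with its own number, so the numbers were not taken to pair the samples. Depth limits Muc5b, Muc2, Muc16 and Muc13, which had at most 279 reads in any library.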
